A study of Mus musculus with 8 samples.

Results

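Gm15446 and 1110028F11Rik are 2 poorly annotated mouse genes of the 55401 genes listed for each dish. They were chosen by their p-values in the comparison of exposed with control cells. Among the tested genes named only as a predicted model (symbols beginning with Gm) or a RIKEN clone (symbols ending in Rik), Gm15446 had the smallest p-value on the higher side and 1110028F11Rik the smallest on the lower side. The difference between the groups is therefore given for both genes as a description, without a test.

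RNA was sequenced from AML12 cells, a hepatocyte line from mouse liver, in 4 control dishes and 4 dishes kept for 1 h under Opti-ELF-WMF. Opti-ELF-WMF is a pulsed magnetic field of extremely low frequency, with 4 ms pulses that step from 1 to 8 Hz and peak at 100 mG. Both groups came from 1 culture batch and sat between copper plates that damp other magnetic fields. The controls had the stimulator switched off in a different incubator, so the field and the incubator cannot be told apart. The dishes are replicates of 1 cell line, and every spread and p-value below refers to the variation between these dishes. Expression is given as TPM, a level of RNA corrected for gene length and scaled to the same total in each dish. TPM keeps no read number, and neither the sequencing depth nor the counting error behind a value is known. In bulk RNA, fewer cells that express a gene and less RNA per cell cannot be told apart.

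Gm15446 is annotated in GENCODE as protein-coding, and its coding sequence holds an array of C2H2 zinc fingers. C2H2 zinc fingers are short folds in which cysteine and histidine residues hold a zinc ion, and proteins with arrays of them usually bind DNA. Genes of this family often lie in clusters of near copies left by duplication. 1110028F11Rik is annotated as a sense intronic transcript, a non-coding RNA that lies within an intron of a protein-coding gene and is read from the same strand. Its host is Rnf43, which encodes a membrane ubiquitin ligase that removes Wnt receptors from the cell surface. No function is given for either gene in the sources used here.

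Gm15446 (ENSMUSG00000090015) lies on chromosome 5 from 109923400 to 109943936 on the plus strand of GRCm38, the mm10 assembly. Its longest transcript, Gm15446-201, has 4 exons and 2417 bases. TPM is given per gene, so which transcript of Gm15446 the values come from cannot be told. The coding part of 1659 bases encodes 553 residues, in which the C2H2 pattern (2 cysteines and 2 histidines at set distances, with 12 residues between the pairs) was found 16 times. RefSeq lists the locus differently, as a long non-coding RNA from 109933563 to 109941710, which is the extent of the GENCODE transcript with a retained intron, Gm15446-202. The nearest relative, Zfp932, begins 52585 bases further along the same strand and encodes 526 residues with 15 pattern matches in Zfp932-203. Aligned over 2075 bases, Gm15446-201 and Zfp932-203 had 29 mismatches (98.6% identity, gaps not counted) and 3 gaps, with a longest identical run of 264 bases. The longest BLAST match between both transcripts had 97.4% identity over 1765 bases. Because the sequenced reads were 150 bases long, the following stretch is shown as the 150 aligned bases with the most mismatches between both transcripts. Parts of Gm15446-201 outside the alignment are not covered by this choice. The 5 differing bases are in capitals, and both lines run 5′ to 3′ on the plus strand, from GENCODE M21 transcripts. The first lies at chr5:109943075-109943224, within 1 coding exon, and the second at chr5:110009548-110009697.
Gm15446-201: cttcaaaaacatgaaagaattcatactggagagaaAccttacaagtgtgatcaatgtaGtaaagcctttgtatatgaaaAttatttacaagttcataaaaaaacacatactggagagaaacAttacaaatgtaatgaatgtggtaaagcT
Zfp932-203: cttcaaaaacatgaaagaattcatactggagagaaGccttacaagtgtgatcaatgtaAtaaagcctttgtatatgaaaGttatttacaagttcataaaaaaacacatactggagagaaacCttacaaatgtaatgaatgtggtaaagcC

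Of the 2268 windows of read length in Gm15446-201, 197 (8.69%) occurred unchanged in Zfp932, and in no other gene. In Gm15446-202 the number was 64 of 1402 windows (4.56%), and in the short transcript Gm15446-203 it was 0 of 43. Most single reads of Gm15446 therefore differ from Zfp932 by at least 1 base, although a sequencing error can hide that base. An antisense gene, Gm26808, overlaps the 5′ end of Gm15446 and was not analysed here.

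1110028F11Rik (ENSMUSG00000085972) lies on chromosome 11 from 87701396 to 87705331, on the plus strand like Rnf43. The longer transcript, 1110028F11Rik-201, has 2 exons of 251 and 586 bases and no coding part. RefSeq places a long non-coding RNA at 87699524 to 87705327. The gene starts 38674 bases after the first base of Rnf43 and lies in intron 1 of Rnf43-201, which is 18254 bases long. Of its 4 exon records in GENCODE, 0 overlap an exon of Rnf43. The RefSeq extent begins before that intron of Rnf43-201, which starts at 87700124. The splice junction is shown because only a spliced read of this RNA crosses it, whereas other reads from the locus could equally come from unspliced Rnf43 RNA. The capitals mark the 20 bases around the junction, 10 from each exon, and the stretch spans chr11:87701587-87704805 on the plus strand, from GENCODE M21.
1110028F11Rik-201: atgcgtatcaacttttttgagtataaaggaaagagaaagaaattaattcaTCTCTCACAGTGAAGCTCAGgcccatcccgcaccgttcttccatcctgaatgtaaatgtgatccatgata

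None of the read-length windows of 1110028F11Rik-201 (0 of 688) or 1110028F11Rik-202 (0 of 234) occurred in another annotated transcript. A BLAST search at 90% identity over 200 bases found 0 genes similar to 1110028F11Rik and 4 similar to Gm15446.

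Gm15446 measured 5.79, 11.61, 5.84 and 5.18 TPM in control dishes 1 to 4, and 20.16, 21.35, 21.07 and 22.39 TPM in Opti-ELF-WMF dishes 1 to 4. The groups did not overlap, and control dish 2 lay between the other controls and the exposed dishes. The mean was 7.1 ± 3.0 TPM in control and 21.2 ± 0.92 TPM in exposed cells (SD, n = 4 each), a ratio of 2.99. The lowest exposed dish was 1.74 times the highest control dish. On the log2(TPM + 1) scale, on which the fit was made and which understates changes of low genes, the means were 2.96 and 4.47 and the difference was 1.52 (SE 0.19). In order of level among the 12122 tested genes, Gm15446 stood at place 9265 by its control mean and at place 6202 by its exposed mean.

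1110028F11Rik measured 2.75, 3.03, 3.08 and 2.81 TPM in the control dishes. In the Opti-ELF-WMF dishes it measured 1.38, 1.29, 1.47 and 1.48 TPM. The groups did not overlap, and no dish stood apart within either group. The mean was 2.92 ± 0.16 TPM in control and 1.40 ± 0.089 TPM in exposed cells (SD, n = 4 each), a ratio of control to exposed of 2.08. The lowest control dish was 1.86 times the highest exposed dish. On the log2(TPM + 1) scale the means were 1.97 and 1.27 and the difference was -0.70 (SE 0.077). All 8 values were near the filter limit of 1 TPM, and the place in order of level went from 10540 to 11520 of 12122.

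**Figure D1:**
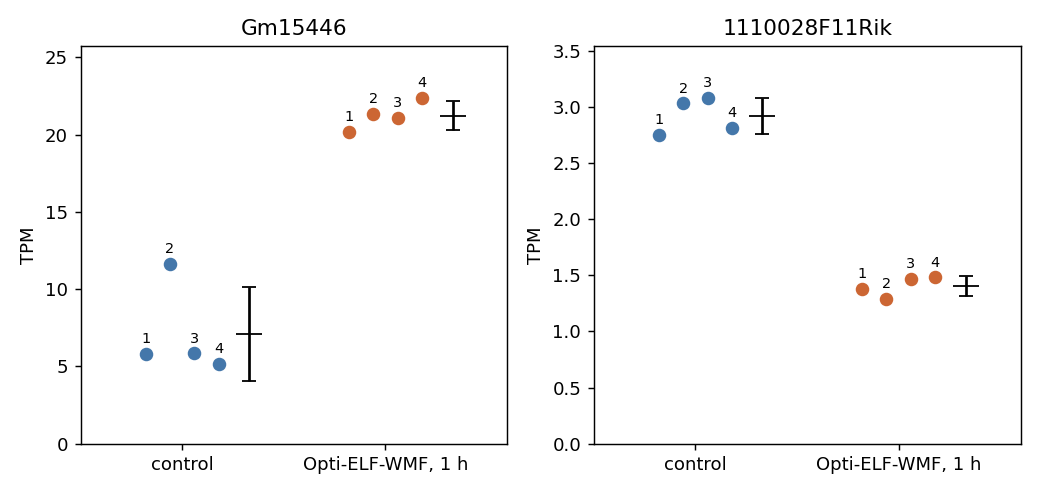
TPM of Gm15446 (left) and 1110028F11Rik (right) in each of the 4 control and 4 Opti-ELF-WMF dishes, numbered by replicate, with mean and SD beside the points. Control dish 2 of Gm15446 (11.61 TPM) sits between the other 3 controls and the exposed dishes, whereas both groups of 1110028F11Rik are tight.

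In limma across all 12122 tested genes, 0 (0.0%) had an adjusted p under 0.05 and 1894 (15.6%) an unadjusted p under 0.05, of which 1451 (12.0% of tested genes) were higher and 443 (3.65%) lower. The 4 values of one group all lay beyond the 4 of the other in 1196 genes (9.87%), of which 971 (8.01%) were higher and 225 (1.86%) lower after exposure. Both genes belong to these counts by the way they were chosen. Measured as the distance between the nearest dishes of the groups on the log2(TPM + 1) scale, Gm15446 had the widest separation of all tested genes, 0.75, and 1110028F11Rik the second widest, 0.60. The next was Fgfr3, a fibroblast growth factor receptor gene, with 0.26 and a difference of -0.51. It was followed by Gm16144 with a distance of 0.25 and by Gm12138 with 0.23. These 2 separations were not part of the rule but share its contrast, and are given without a test. Fgfr3 and Gm16144 lie outside the rule for named genes and were named after their values were seen.

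**Figure D2:**
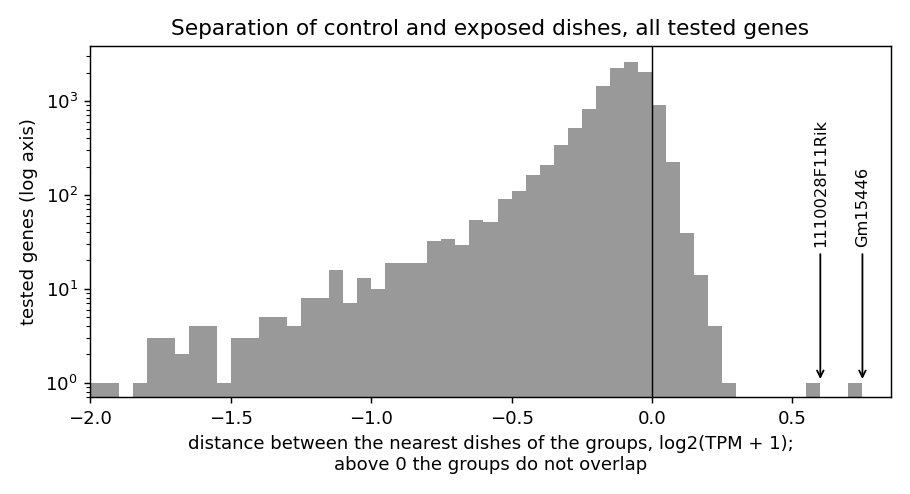
Number of tested genes (log axis) by the distance between the nearest dishes of the 2 groups in log2(TPM + 1), with values above 0 for genes whose groups do not overlap. 32 genes below -2 are not drawn. Gm15446 (0.75) and 1110028F11Rik (0.60) lie to the right of all other genes, the next being at 0.26.

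The poorly annotated genes just outside the rule were closer between groups. On the higher side the next was Gm12138, with 3.85 ± 0.41 TPM in control and 5.7 ± 0.53 TPM in exposed cells, a difference of 0.47 on the log2 scale. Gm9118 followed with means of 138 and 157 TPM and 2010204K13Rik with 32.6 and 39.2 TPM. On the lower side came Gm28661 with means of 14900 and 11800 TPM, Gm10925 with 14300 and 11300 TPM, and Gm28437 with 11400 and 9190 TPM. These 3 are annotated as unprocessed pseudogenes, lie side by side on chromosome 1 and differed by -0.33, -0.35 and -0.32 on the log2 scale. Whether reads of similar genes elsewhere add to their levels was not examined. Their levels are far above the 1.40 TPM of 1110028F11Rik in exposed cells.

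The control spread of Gm15446 was wide for its level. Its SD of log2(TPM + 1) over the control dishes was 0.47. This was above that of 99.4% of the 500 tested genes nearest in mean level over all 8 dishes (median SD 0.078). Over the exposed dishes its SD was 0.059, above that of 28.6% of the same 500 genes (median 0.089). The mean level used for this choice lies between the control and exposed levels of Gm15446. Without control dish 2, the other 3 controls had a mean of 5.6 ± 0.37 TPM. This dish stood apart from its group in 150 tested genes, within the range of 122 to 219 over the 8 dishes.

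1110028F11Rik was tight in both groups. Its SD of log2(TPM + 1) was 0.060 over the control dishes and 0.054 over the exposed dishes, above that of 7.8% and 4.6% of the 500 tested genes nearest in level, whose median SDs were 0.16 and 0.15. A small spread lowers a p-value, so this property is in part what the rule selected.

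Leaving out each dish in turn, the difference of Gm15446 ranged from 1.41 to 1.75 on the log2 scale and that of 1110028F11Rik from -0.72 to -0.68. The highest value for Gm15446 came without control dish 2, when the SE fell from 0.19 to 0.06. Ranked by p among the tested genes that were higher, Gm15446 stood at place 1 with all dishes, at places 1 to 3 in the 8 fits without a dish, and first in 3 of them. 1110028F11Rik stood at place 1 among the lower genes with all dishes, at places 1 to 6 without a dish, and first in 4 of 8. The differences thus moved little while the rank by p moved by several places.

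**Figure D3:**
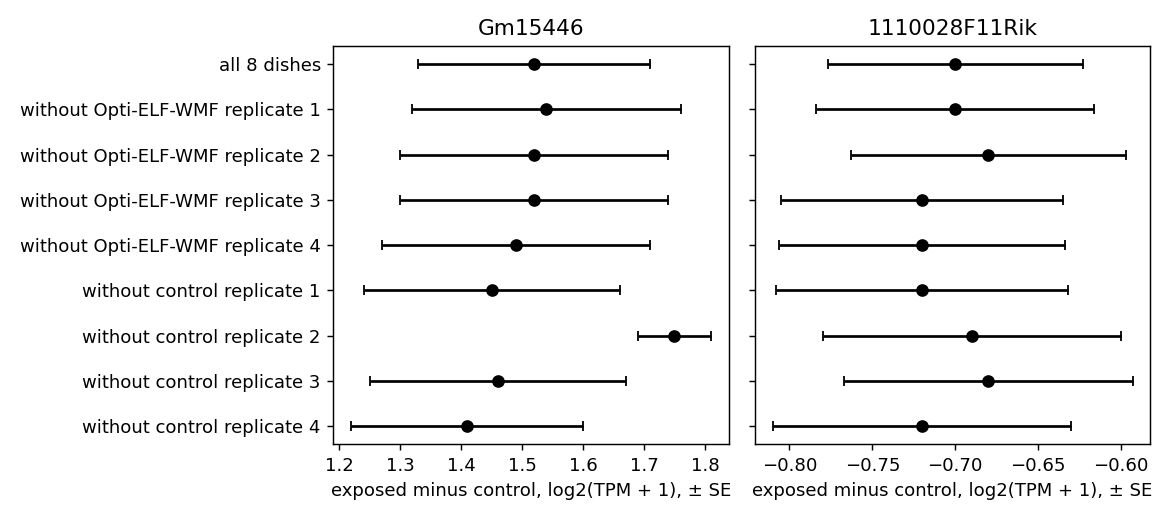
Difference between exposed and control dishes in log2(TPM + 1) with its standard error, for all 8 dishes and without each dish in turn. For Gm15446 (left) the difference is 1.75 and the error shortest without control dish 2, and for 1110028F11Rik (right) all values lie between -0.72 and -0.68.

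Zfp932, the near copy of Gm15446, differed between the groups by less than the spread between dishes. Zfp932 measured 19.69, 17.92, 17.90 and 15.60 TPM in control dishes 1 to 4. In exposed dishes 1 to 4 it measured 21.29, 18.90, 16.58 and 16.81 TPM. The groups overlapped, with means of 17.8 ± 1.7 and 18.4 ± 2.2 TPM. The difference was 0.044 on the log2 scale (SE 0.088, 95% interval -0.15 to 0.24), with an adjusted p of 0.857 in limma. In control dish 2, where Gm15446 was high, Zfp932 was the second highest of the 4 controls. Per length, Gm15446 was below Zfp932 in each control dish, at 0.294 to 0.648 of its level, and at 0.947 to 1.33 of its level in the exposed dishes.

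Reads shared by both genes can be moved from one to the other when abundance is estimated, so the sum was also examined, an alternative chosen after the data were seen. The sum of Gm15446 and Zfp932 was 20.78 to 29.53 TPM in control dishes (mean 24.9 ± 3.7) and 37.65 to 41.45 TPM in exposed dishes (39.6 ± 1.6). Gm15446 made up 22.7% to 39.3% of that sum in control and 48.6% to 57.1% in exposed cells. The summed level differed by 0.66 on the log2 scale (SE 0.088), smaller than the 1.52 of Gm15446 alone because Zfp932 adds a similar level to both groups. The sums of the groups did not overlap. The part of shared reads in the level of Gm15446 was not tested further.

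The other 3 genes similar to Gm15446 share only short stretches with it. A630089N07Rik, with 90.4% identity over 291 bases, measured 12.2 ± 1.8 TPM in control and 10.5 ± 0.80 TPM in exposed cells, a difference of -0.19 (SE 0.095, adjusted p in limma 0.378). Gm31793, with 90.4% over 292 bases, had means of 4.19 ± 1.2 and 3.75 ± 0.42 TPM (difference -0.10, 95% interval -0.47 to 0.27). Gm17655, with 92.9% over 255 bases, had means of 2.29 ± 0.72 and 2.34 ± 0.58 TPM (adjusted p in limma 0.96). Of the 4 similar genes, 0 had an adjusted or an unadjusted p under 0.05, beside 0.0% and 15.6% of all tested genes, a share from which 4 genes cannot be told apart.

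The host gene Rnf43 had a lower mean in exposed than in control cells. The difference was above the SD of the control dishes and below that of the exposed dishes. Rnf43 measured 21.40, 23.44, 23.26 and 21.39 TPM in the control dishes. It measured 18.41, 21.74, 22.30 and 21.63 TPM in the exposed dishes. The groups overlapped, exposed dish 1 being the lowest, and the difference was -0.088 on the log2 scale (SE 0.063, 95% interval -0.23 to 0.053, adjusted p in limma 0.548). Unspliced Rnf43 RNA was not measured. The level of 1110028F11Rik per length was 0.129 to 0.132 of that of Rnf43 in the control dishes and 0.0593 to 0.075 in the exposed dishes.

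**Figure D4:**
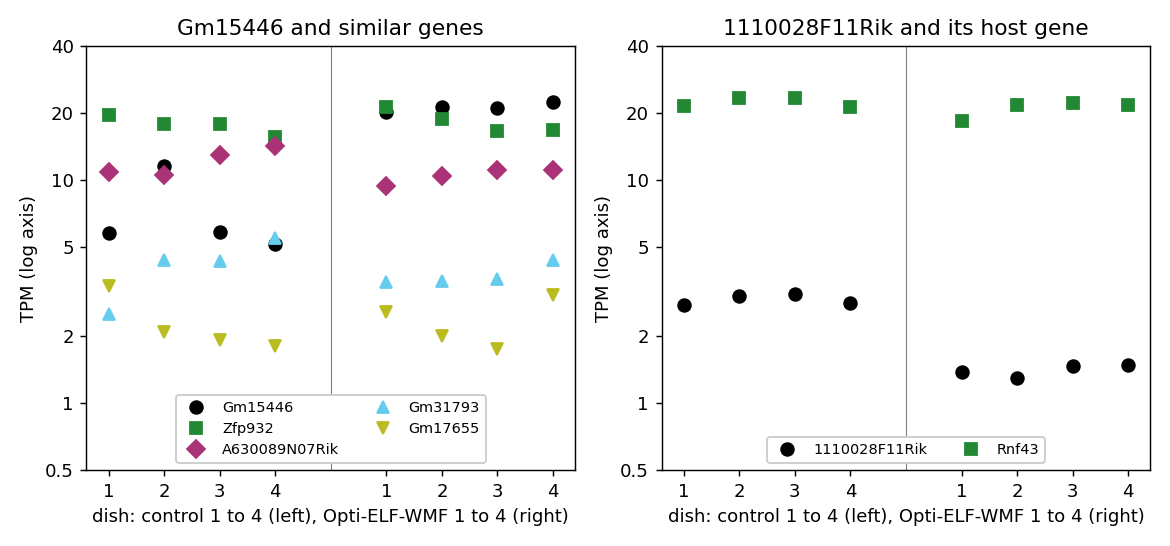
TPM per dish on a log axis, for Gm15446 with the 4 genes similar to it (left) and for 1110028F11Rik with its host gene Rnf43 (right), control dishes left of each line and Opti-ELF-WMF dishes right of it. Gm15446 moves from 5.18 to 11.61 TPM in control up to the level of Zfp932, and 1110028F11Rik moves down while Rnf43 stays between 18.41 and 23.44 TPM.

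The genes around each locus were examined by position, within 500000 bases on either side and on both strands. Around Gm15446, 41 genes were annotated, 38 had values, 6 were at 0 in all dishes and 16 passed the filter on low values. In limma 0 of the 16 had an adjusted p under 0.05, 0 an unadjusted p under 0.05, and 0 had groups that did not overlap, beside 15.6% and 9.87% of all tested genes. Differences ranged from -0.15 to 0.082 on the log2 scale, 8 above and 8 below zero, with a median of -0.0031 beside 0.026 for all tested genes. All their 95% intervals lay between -0.50 and 0.40. Near the threshold was Gtpbp6, a GTP-binding protein gene named after its value was seen, with -0.15 (SE 0.066, unadjusted p in limma 0.0501, adjusted 0.32). This count is sensitive to the scaling, with up to 2 of the neighbours at an unadjusted p under 0.05 when mitochondrial genes were left out of the TPM total.

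On the side before Gm15446, the nearest tested genes were 4930522L14Rik with means of 7.83 TPM in control and 7.29 TPM in exposed cells, 5430403G16Rik with 1.63 and 1.79 TPM, and Crlf2, a cytokine receptor subunit, with 7.77 and 7.39 TPM. On the side after it were Zfp932, Gm17655 and Gm35315, the last with 3.12 and 3.06 TPM. Within 2000000 bases, 2 genes with Zfp symbols were found, and both were tested. Besides Zfp932 this was Zfp605, with 2.93 and 2.88 TPM and a difference of -0.019. Of the 16 tested neighbours, none had a 95% interval that reached the difference of Gm15446. Because Gm15446 was chosen as an extreme of the same contrast, this is a description only.

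Around 1110028F11Rik, 47 genes were annotated, 45 had values, 22 were at 0 in all dishes and 11 passed the filter. Again 0 of 11 had an adjusted p, and 0 an unadjusted p, under 0.05 in limma, and 0 had groups that did not overlap, beside 0.0%, 15.6% and 9.87% of all tested genes. With so few neighbours, a count of 0 at either locus is not read as a difference from those shares. Differences ranged from -0.12 to 0.074, 7 above and 4 below zero, with a median of 0.0066 beside 0.026 for all tested genes, and all 95% intervals lay between -0.33 and 0.26. The 3 nearest tested genes before it were Mtmr4, a phosphoinositide phosphatase, with means of 34.7 and 33.6 TPM, Septin4, a septin of the cytoskeleton, with 2.62 and 2.47 TPM, and Rad51c, of homologous recombination, with 7.03 and 7.40 TPM. After it came Supt4a, a transcription elongation factor, with 83.4 and 83.8 TPM, Dynll2, a dynein light chain, with 85.4 and 88.2 TPM, and Srsf1, a splicing factor, with 266 and 274 TPM. Supt4a starts 32221 bases after the end of 1110028F11Rik. Without control dish 3, 2 of the 11 had an unadjusted p under 0.05.

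**Figure D5:**
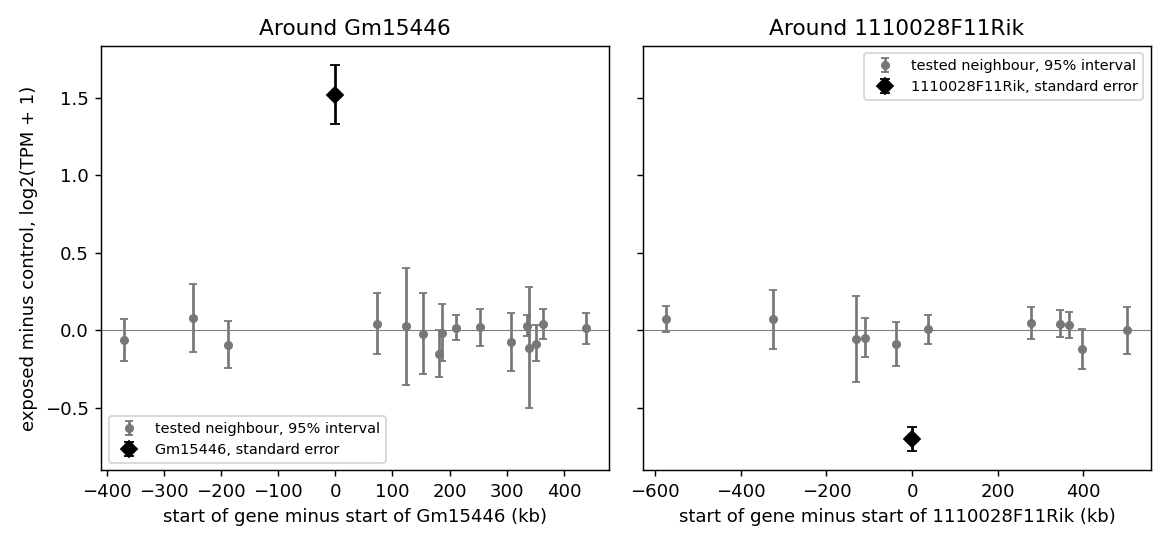
Difference between exposed and control dishes in log2(TPM + 1) for the tested genes around Gm15446 (left, 16 genes) and 1110028F11Rik (right, 11 genes), by the distance between gene starts in kb. Grey bars are 95% intervals of the neighbours, all crossing or touching zero, and the black diamonds with standard errors are Gm15446 at 1.52 and 1110028F11Rik at -0.70.

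Among all 1209 tested genes with Gm or Rik symbols, 64 (5.29%) were higher and 89 (7.36%) lower at an unadjusted p under 0.05 in limma, and 0 passed the adjusted threshold. Over all tested genes the shares were 12.0% and 3.65%, but that balance depends on the scaling. When TPM was rescaled without mitochondrial genes, 693 of all tested genes were higher and 675 lower, and their median difference was -0.0015 in place of 0.026. The groups of 857 tested genes then did not overlap, in place of 1196. In the class, 146 genes then had an unadjusted p under 0.05 in limma, in place of 153. With TPM as reported, the groups did not overlap in 72 genes of the class (5.96%), beside 9.87% of all tested genes. The median difference of the class was -0.018 beside 0.026. Of the 867 Gm symbols 49 were higher and 63 lower, and of the 342 Rik symbols 15 were higher and 26 lower. Without Gm15446 and 1110028F11Rik, the class of 1207 genes held 63 higher and 88 lower genes.

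The tested genes whose log2(TPM + 1) followed each gene most closely over the 8 dishes were found by Pearson's r, given as a description since all dishes share 1 contrast and since they are the top of 12122 genes. For Gm15446 these included Phf10, a chromatin remodelling subunit (r = 0.981), Slc3a2, the heavy chain of amino acid transporters (0.979), Aurkaip1, a mitochondrial ribosome protein (0.969), and Ctsc, a lysosomal protease (0.962). Each of these 4 had its highest control value in dish 2, as Gm15446 did, a trait that the choice by r favours. Their differences between the groups were far smaller, from 0.074 for Slc3a2 to 0.14 for Aurkaip1 on the log2 scale. Phf10, for example, measured 42.70 to 44.73 TPM in control and 45.28 to 46.10 TPM in exposed dishes.

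For 1110028F11Rik they were Ccdc66, a microtubule and cilium protein (r = 0.989), Rxrb, a retinoid X receptor (0.976), Chd9, a chromatin remodeller (0.974), Zgpat, a transcriptional repressor (0.971), and Mlxipl, the glucose-responsive factor ChREBP (0.969). Their differences ran from -0.21 for Mlxipl to -0.089 for Rxrb on the log2 scale, beside -0.70 for 1110028F11Rik. Mlxipl measured 13.31 to 13.60 TPM in control and 11.11 to 11.84 TPM in exposed dishes.

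Each dish had 19386 to 20114 genes above 0. Markers of hepatocytes were present in all dishes, with Hnf4a at 180.28 to 217.95 TPM, Ttr at 333.23 to 383.65 TPM, Trf at 807.81 to 892.29 TPM and Alb at 46.12 to 58.22 TPM, whereas Afp was at 0.48 to 1.33 TPM and Apoa1 at 3.12 to 5.29 TPM. The epithelial keratin Krt8 was at 2205.62 to 2431.42 TPM, and the mesenchymal filament Vim was at 1304.12 to 1509.23 TPM beside Col1a1 at 0.3 to 1.2 TPM. Of the leukocyte and endothelial markers, Adgre1 and Cdh5 were at 0, Ptprc and Pecam1 at or below 0.2 TPM and Cd68 at 1.05 to 2.21 TPM. Genes of the mitochondrial genome took 8.69% to 9.42% of TPM in control and 5.99% to 7.69% in exposed dishes, a share that TPM passes on to all other genes. Rescaled without them, the difference was 1.50 for Gm15446 and -0.74 for 1110028F11Rik. Only genes placed on the mitochondrial genome were left out, so the pseudogenes Gm28661, Gm10925 and Gm28437 on chromosome 1 stayed in the total. Their levels were also lower in exposed dishes.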

How the data were processed

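Both genes, and the lists of neighbours, similar genes and markers, were chosen with earlier results of these data known. The authors made stranded poly(A) libraries, read for 150 bases from both ends, and deposited a TPM value for each of 55401 genes in every dish. The submitters' processing notes name Trimmomatic 0.39, STAR 2.7.4a, RSEM 1.3.3 and mm10, and the annotation version is not given in the sources used here. TPM is not a count, so depth is unknown, no count test was run, and the fallback of the design was used, limma 3.58.1 in R 4.3.3 (lmFit, then eBayes with a trend) on log2(TPM + 1). Genes with TPM of at least 1 in at least 4 dishes were tested (12122), with Benjamini-Hochberg adjustment over all of them and 95% intervals from the same fit. Groups came from the treatment label.

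Positions and transcripts are those of GENCODE M21 (GRCm38), in which 55141 of the gene identifiers were found. Similar genes were sought with BLAST 2.17.0 (at least 90% identity over at least 200 bases), and Biopython 1.88 aligned the transcripts of Gm15446 and Zfp932. Named genes were both genes, up to 3 nearest tested neighbours a side, overlapping genes, the next 3 poorly annotated genes by p in each direction, the 5 genes with the highest r with each, similar genes and nearby Zfp genes. Of these, 1 gene is not reported here. The fit was tested on simulated data. Deviations of dishes with the same replicate number correlated at -0.0419 to 0.0258, and the numbers were not taken as pairs. Alternatives covered pseudocount, filter, scaling, trend, replicate block and leaving out each dish.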

Additional observations from a re-analysis of the deposited data

Results flagged for a closer look

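Each group of 4 dishes was searched for a single dish far from its group, by Dixon's 95% limit for the gap to the nearest dish over the range. Of 94 groups examined for the named genes and the neighbours, 8 had such a dish, where chance gives about 4.7 if groups are independent. They were not independent, since genes such as Aurkaip1 were chosen by their r with Gm15446. The number of groups with such a dish is therefore not weighed against chance. Gm15446 had such a dish, with 11.61 TPM in control dish 2 beside 5.18 to 5.84 TPM in the other controls. In the same dish Aurkaip1 had 75.9 TPM beside 72.47 to 72.95 TPM, and the neighbour Gm15788 had 2.95 TPM beside 1.64 to 1.76 TPM. Aurkaip1 also stood apart in Opti-ELF-WMF dish 1, with 78.68 TPM beside 81.81 to 82.43 TPM. Around 1110028F11Rik, Septin4 had 1.9 TPM in control dish 3 beside 2.8 to 2.95 TPM. Gm31793, which is similar to Gm15446, had 4.37 TPM in Opti-ELF-WMF dish 4 beside 3.5 to 3.6 TPM. Among the genes next in rank, Gm9118 had 147.71 TPM in control dish 1 beside 133.2 to 135.64 TPM, and Gm10925 had 13836.95 TPM in control dish 4 beside 14436.55 to 14543.31 TPM. 1110028F11Rik had no such dish.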

How the results depend on the processing

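Both differences kept their direction in all alternatives. The rank by p within each direction was less stable. With all dishes kept, Gm15446 stood at place 7 with no filter, where 25413 genes were tested, and at place 2 without the trend. 1110028F11Rik stood at place 3 with the replicate block. The difference of Gm15446 was 0.66 when Zfp932 was added to it, an alternative chosen after the data were seen. It was 1.41 to 1.75 without each dish. That of 1110028F11Rik was -1.0 with a pseudocount of 0.1, -0.84 with 0.5 and -0.72 to -0.68 without each dish, since the pseudocount shrinks the difference of a low gene. The count of adjusted p under 0.05 was 1 in place of 0 with TPM of at least 1 in every dish, without the trend, and with median-of-ratios or upper-quartile scaling, each time 1110028F11Rik. It was 0 to 2 without each dish: Fgfr3 and Gm15446 without control dish 2, and Gm7329 without control dish 3. Gm15446 and 1110028F11Rik were chosen by p in this contrast, so their passing is a description and not a test. Unadjusted counts were 1368 to 2565, the latter among the 25413 genes tested with no filter, and 1496 to 1963 without each dish. Of these calls 76.6% were higher as reported, but 50.7% when rescaled without mitochondrial genes, 55.2% with median-of-ratios and 63.3% with upper-quartile scaling. Genes whose groups did not overlap were 857 to 1401 with all dishes kept, lowest when rescaled without mitochondrial genes and highest with no filter. They were 1505 to 1923 without each dish, because groups of fewer dishes overlap less often. The highest counts were 1923 without Opti-ELF-WMF dish 1 and 1849 without dish 4. Neighbours with an unadjusted p under 0.05, 0 as reported, were for Gm15446 2 without mitochondrial genes, 1 each with TPM of at least 1 in every dish, median-of-ratios, upper-quartile scaling and pseudocounts of 0.1 and 0.5, and 0 to 1 without each dish. For 1110028F11Rik they were 1 each without mitochondrial genes, with median-of-ratios and with upper-quartile scaling, and 0 to 2 without each dish. Poorly annotated genes at an unadjusted p under 0.05 were 153, 517 with no filter, where more genes were tested, and 120 to 172 without each dish. With the replicate block the differences were 1.52 and -0.70, 0 genes passed the adjusted threshold, 1889 the unadjusted one, and 1 neighbour of 1110028F11Rik had an unadjusted p under 0.05, and no other count crossed its limit. The cause of the other shifts was not tested. With 4 dishes a group and no depth, small changes at 1 to 3 TPM could not be weighed against counting error.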
